A study of Homo sapiens with 60 samples.

Results

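The data described here are the mRNA levels of 10 genes of cellular iron uptake, storage, export and sensing, taken by symbol from the 60675 genes of the table. The genes are TFRC, SLC11A2, FTH1, FTL, NCOA4, SLC40A1, HMOX1, ACO1, IREB2 and FBXL5. HepG2, an established line from a human hepatocellular carcinoma, was treated for 24 h with 0.1% DMSO as vehicle or with a water extract, and total RNA was sequenced in 60 libraries. The design text names 2% DMSO for the vehicle instead. Extracts of 2 herbs, Menthae Herba and Saposhnikoviae Radix, and of 4 multi-herb formulas of Korean medicine, Guibi-tang, Saengmaek-san, Okbyeongpung-san and Soyo-san, were each given at 20, 100 and 500 µg/mL with 3 libraries a dose. Vehicle also has 3 libraries. Soshiho-tang, a further formula, has 1 library a dose and is given as values without a test. Each sample code opens with a set: B1 for vehicle, 5 for the 2 herbs and 6 for Saengmaek-san and Guibi-tang. Soyo-san and Okbyeongpung-san are in set 7 and Soshiho-tang is in set 8. What a code set stands for is not stated in the labels. Whether replicate libraries came from separate cultures is not stated in the labels, and p-values therefore cover only the spread between the libraries.

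Hepatocytes take up iron bound to transferrin through the receptor encoded by TFRC, keep it in ferritin shells built from FTH1 and FTL, and release it through ferroportin, encoded by SLC40A1. When the cytosol is poor in iron, the iron regulatory proteins encoded by ACO1 and IREB2 bind a hairpin in mRNAs, the iron-responsive element. Bound in a 3′ UTR, as in TFRC, they protect the mRNA from decay, and bound in a 5′ UTR, as in the ferritins and SLC40A1, they block translation. FBXL5 is the iron-sensing adaptor of a ubiquitin ligase that removes IREB2 protein when iron is plentiful. The libraries measure mRNA and hold no measure of iron, translation or protein.

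The hairpins of this kind that a search of the transcripts found are printed first, since they show where in each mRNA the letters lie. The protein-coding transcripts of the GENCODE v29 basic set (GRCh38) were searched whole for a C, any 5 bases, the loop letters CAGTGN and 5 bases that pair with the 5 before the loop, with G-T pairs allowed. Of 19652 genes 281 held a match, which is 1.43%, and so did 4 of the 10 members. Each sequence below runs 5′ to 3′ with 4 bases on either side of the match, in DNA letters and with the loop in capitals.
TFRC 3′ UTR, transcript base 3394 (chr3:196050985-196051001, minus strand): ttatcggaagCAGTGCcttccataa
TFRC 3′ UTR, transcript base 3798 (chr3:196050581-196050597, minus strand): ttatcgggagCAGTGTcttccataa
TFRC 3′ UTR, transcript base 3863 (chr3:196050516-196050532, minus strand): gtatcggagaCAGTGAtctccatat
TFRC 3′ UTR, transcript base 3910 (chr3:196050469-196050485, minus strand): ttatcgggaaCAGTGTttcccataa
FTH1 5′ UTR, transcript base 65 (chr11:61967580-61967596, minus strand): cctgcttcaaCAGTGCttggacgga
FTL 5′ UTR, transcript base 41 (chr19:48965341-48965357, plus strand): cttgcttcaaCAGTGTttggacgga
SLC40A1 5′ UTR, transcript base 205 (chr2:189580667-189580683, minus strand): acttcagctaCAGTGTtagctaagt
The coordinates cover the match without the flanking bases. TFRC held 4 matches downstream of its coding sequence, and each of the other 3 genes held 1 upstream. The pattern does not find every reported element: EPAS1, CDC42BPA and PFN2, for which one is reported, held no match. A match is a description of the letters, and no match says only that these letters are not in the transcripts searched. For the members without a match, SLC11A2 among them, it does not show that the mRNA lacks an element.

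**Figure D1:**
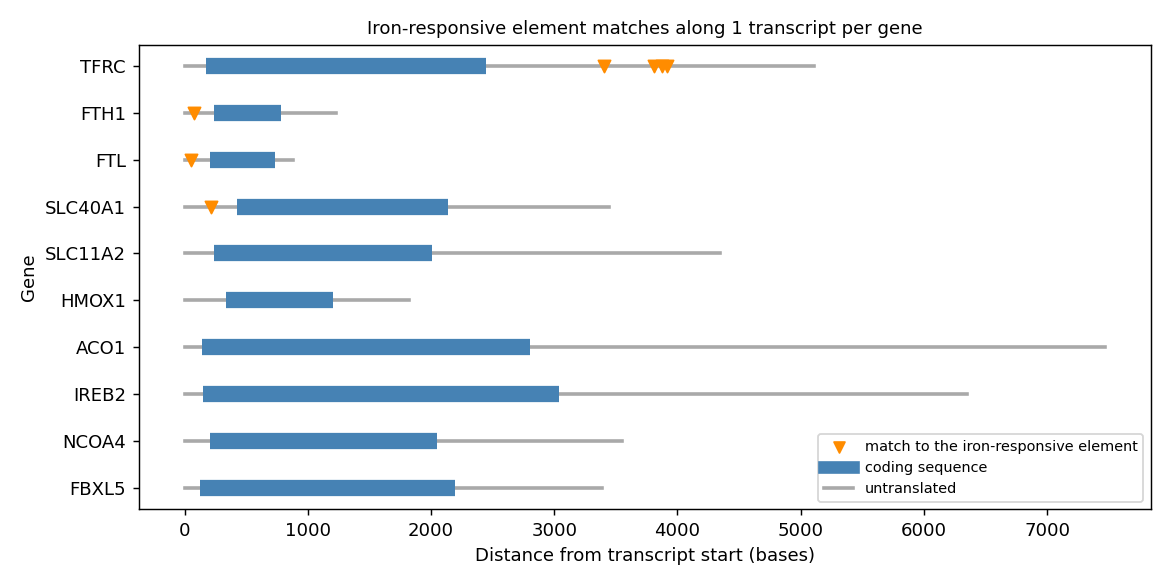
The 10 genes are drawn along 1 transcript each (the one with most matches), with the distance from the transcript start in bases on the x axis, coding sequence as a thick bar and each match to the iron-responsive element as a triangle. The 4 matches of TFRC lie after its coding sequence, and the single matches of FTH1, FTL and SLC40A1 lie before theirs.

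All 10 members passed the filter on low counts. Library totals ran from 20446542 to 32386486 expected counts, and the lowest count of any member in any library was 404, for FBXL5. Levels are in CPM, read counts scaled to a common library total, here adjusted by TMM (the trimmed mean of M values). Per kilobase of exon the vehicle libraries held 7660.3 CPM of FTL, 789.7 of FTH1, 122 of NCOA4, 45.9 of TFRC, 24.2 of HMOX1, 13.8 of SLC40A1, 8.87 of ACO1, 8.03 of IREB2, 6.51 of SLC11A2 and 4.85 of FBXL5. The ferritin light chain was thus the most abundant member per length. The hepatocyte markers ALB and APOB ran from 6749 to 8397 CPM and from 15834 to 29748 CPM. HBB of red cells was at 0 in all 60 libraries and PTPRC of leukocytes was at most 0.0432 CPM. Not every listed marker of other cells was near 0. CD68 of macrophages ran from 30.5 to 51.1 CPM and CD14 from 0.783 to 2.73. PDGFRB and COL1A1 of fibroblasts ran from 7.29 to 24.7 and from 0.459 to 1.51 CPM, and HBA1 of red cells from 0.294 to 1.80. The remaining listed markers of these cells were at most 0.208 CPM (COL3A1). Besides treatment, 2 properties differ between libraries. The first is the nuclear RNA MALAT1, at 175 to 283 CPM in 31 libraries and 387 to 552 CPM in 29. KCNQ1OT1, also a nuclear RNA, split the same way (119.6 to 167 and 206 to 328 CPM), whereas NEAT1 overlapped (171 to 284 and 174 to 289 CPM). The classes follow the order of the sample codes, vehicle first. Every library up to Guibi-tang replicate 2 at 500 µg/mL is low, and every later one is high. Vehicle, Menthae Herba and Saposhnikoviae Radix libraries are all in the low class, those of Soshiho-tang, Soyo-san and Okbyeongpung-san all in the high class, and Saengmaek-san and Guibi-tang hold both. The second is the slope of a library's log2 CPM deviation on log2 exon length, from -0.050 to 0.048.

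A gene was called where its adjusted p from edgeR's quasi-likelihood F test, Benjamini-Hochberg over all 16644 genes tested, was under 0.05. Within an extract, 500 against 20 µg/mL uses no vehicle library. With Menthae Herba 2 members rose and 4 fell in this comparison, against 32.1% of all genes called. With Saposhnikoviae Radix 2 fell (0.397% of all genes called), with Saengmaek-san 1 rose (1.96%), with Guibi-tang 4 rose (8.12%), with Soyo-san 1 rose (7.58%) and with Okbyeongpung-san none was called (0.0240%, 4 genes). In the last comparison 1 member, HMOX1, had an unadjusted p under 0.05 (0.011), and DESeq2 called no member either. Over the 6 extracts this made 14 of 60 member tests called, 23.3% against 8.37% of all gene tests. The members were chosen with earlier results of these data known, so this share and those below are descriptions only. Their lowest count was 404, whereas the genes tested reach down to the filter.

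Against vehicle at 500 µg/mL, 15 of 60 member tests were called, 25.0% against 17.0% of all gene tests. The counts were 5 with Menthae Herba (39.8% of all genes called), 4 with Saposhnikoviae Radix (5.80%), 1 with Saengmaek-san (12.6%), 4 with Guibi-tang (13.4%), 1 with Soyo-san (21.5%) and 0 with Okbyeongpung-san (9.11%), where 3 members had an unadjusted p under 0.05. At 100 µg/mL 7 of 60 were called, 11.7% against 9.13%. These were 1 with Menthae Herba (14.0% of all genes), 0 with Saposhnikoviae Radix (5.47%), 0 with Saengmaek-san (6.05%), 1 with Guibi-tang (7.96%), 1 with Soyo-san (8.31%) and 4 with Okbyeongpung-san (12.9%). At 20 µg/mL 2 of 60 were called, 3.33% against 5.44%, both with Saposhnikoviae Radix (7.19%). None was called at that dose with Menthae Herba (6.83%), Saengmaek-san (3.37%), Guibi-tang (4.38%), Soyo-san (3.88%) or Okbyeongpung-san (6.99%). All these comparisons share the same 3 vehicle libraries. Vehicle alone is in code set B1, so each of them also crosses code sets. A difference between sets cannot be told apart from one of the extract here. At 100 and 20 µg/mL, 20 and 15 of the 60 member tests had an unadjusted p under 0.05.

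TFRC, the transferrin receptor (ENSG00000072274, chr3:196027183-196082189, minus strand), was the member with the widest range of group means, 1.89-fold. The vehicle libraries held 375, 356 and 355 CPM. Menthae Herba gave 439, 432 and 348 CPM at 20 µg/mL, 484, 485 and 497 at 100 and 579.7, 563 and 585 at 500. Saposhnikoviae Radix gave 414, 430.1 and 428 CPM at 20 µg/mL, 409.5, 423 and 398 at 100 and 316, 281 and 317 at 500. The 3 Menthae Herba libraries at 500 µg/mL lay above every other library of the series, and the 3 Saposhnikoviae Radix libraries at that dose lay below every other. Bulk counts cannot tell less RNA per cell from fewer cells of a kind.

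Between 20 and 500 µg/mL TFRC rose by 0.50 ± 0.07 on the log2 scale (SE, n = 3 and 3; adjusted p = 1.1e-08, edgeR) with Menthae Herba. It fell by 0.47 ± 0.07 (adjusted p = 7.6e-06, edgeR) with Saposhnikoviae Radix, where its p was the sixth lowest of all genes. TFRC also rose with Saengmaek-san, by 0.30 ± 0.07 (adjusted p = 0.0053, edgeR), from 385 to 413 CPM over the libraries at 20 µg/mL to 469 to 509 at 500, a call lost in a fit of these groups alone (0.052). With Soyo-san it rose by 0.21 ± 0.07 (adjusted p = 0.037, edgeR), from 393 to 413 CPM to 448 to 476. The Soyo-san call was lost without replicate 1 or 2 at 500 or replicate 2 or 3 at 20 µg/mL (adjusted p up to 0.11), although its library ranges do not overlap. The change was 0.10 (95% interval -0.03 to 0.23) with Guibi-tang, at 386 to 412 and 411 to 444 CPM. With Okbyeongpung-san the interval was -0.13 to 0.13. The 3 Soshiho-tang libraries held 466, 513 and 543 CPM at 20, 100 and 500 µg/mL. Menthae Herba replicate 3 at 20 µg/mL, with 348 CPM of TFRC, had the lowest length slope of the series, -0.050. With the slope as a covariate the Menthae Herba change between doses was smaller, 0.37 (adjusted p = 8.9e-08, edgeR). The Saengmaek-san change was then 0.20 (adjusted p = 0.018).

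The 6 changes of TFRC with dose differed among the extracts (edgeR F test with 5 degrees of freedom, adjusted p = 1.0e-10). That test called 3 of the 10 members, against 18.5% of all genes. The Menthae Herba change exceeded the mean of the other 5 by 0.48 ± 0.07 (adjusted p = 6.1e-07, edgeR). That contrast called 4 members, against 23.9% of all genes. With the length slope as a covariate the excess of TFRC was 0.36 (adjusted p = 1.5e-06, edgeR).

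Compared with vehicle at 500 µg/mL, the log2 fold change of TFRC was 0.67 with Menthae Herba, 0.43 with Saengmaek-san, 0.36 with Soyo-san, 0.24 with Guibi-tang and -0.25 with Saposhnikoviae Radix. Each had an adjusted p of 0.017 or lower (edgeR). Of these the Guibi-tang call was lost without its replicate 1 (adjusted p = 0.051), and the Saposhnikoviae Radix call without its replicate 2 (0.12) or vehicle replicate 1 (0.1). With Okbyeongpung-san the change was 0.19 (adjusted p = 0.066). The vehicle level of TFRC was itself low among the libraries: 17 of the 18 libraries at 20 µg/mL and all 18 at 100 µg/mL lay above its 3 libraries. At 20 µg/mL the 6 log2 differences ran from 0.14 to 0.23, and the call with Saposhnikoviae Radix (adjusted p = 0.026) was lost without any 1 of its 3 libraries or of the vehicle libraries (up to 0.079). At 100 µg/mL TFRC was called higher with Menthae Herba (0.43), Soyo-san (0.27), Okbyeongpung-san (0.27) and Guibi-tang (0.21). The Soyo-san and Okbyeongpung-san calls were lost without replicate 3 of their 100 µg/mL libraries (adjusted p = 0.1 and 0.11), and the Guibi-tang call without any 1 of its 3 libraries or without vehicle replicate 2 or 3 (up to 0.11) and in a fit of these groups alone (0.11). All Soyo-san and Okbyeongpung-san libraries differ from vehicle in MALAT1 class as well as in extract. With Saengmaek-san and Guibi-tang, which hold both classes, the TFRC changes at 500 µg/mL were 0.45 and 0.26 with the class as a covariate.

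SLC11A2 encodes the divalent metal transporter that moves iron out of the endosome (ENSG00000110911, chr12:50979401-51028566, minus strand). Its group means spanned 1.33-fold. With Menthae Herba it held 69.8, 73.6 and 62.7 CPM at 20 µg/mL and 62.0, 61.1 and 63.5 at 500, and the ranges overlap. The call of -0.14 (adjusted p = 0.041, edgeR) was lost without any 1 of the 3 libraries at 500 or replicate 1 or 2 at 20 µg/mL (adjusted p up to 0.31), without the filter on low counts (0.14) and in a fit of these groups alone (0.074). With Saposhnikoviae Radix it held 68.5, 68.3 and 74.3 CPM at 20 µg/mL and 63.9, 61.4 and 59.9 at 500, a change of -0.19 (adjusted p = 0.14). The unadjusted p was 0.0012 there and 0.013 with Menthae Herba. With the length slope as a covariate, a setting chosen after seeing the data, these falls were larger. They were then -0.24 with Menthae Herba and -0.20 with Saposhnikoviae Radix (adjusted p = 3.7e-05 and 0.0045, edgeR). Soyo-san gave -0.14 in that setting (adjusted p = 0.022, edgeR), and the changes differed among the extracts (adjusted p = 0.0066, edgeR F test).

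**Figure D2:**
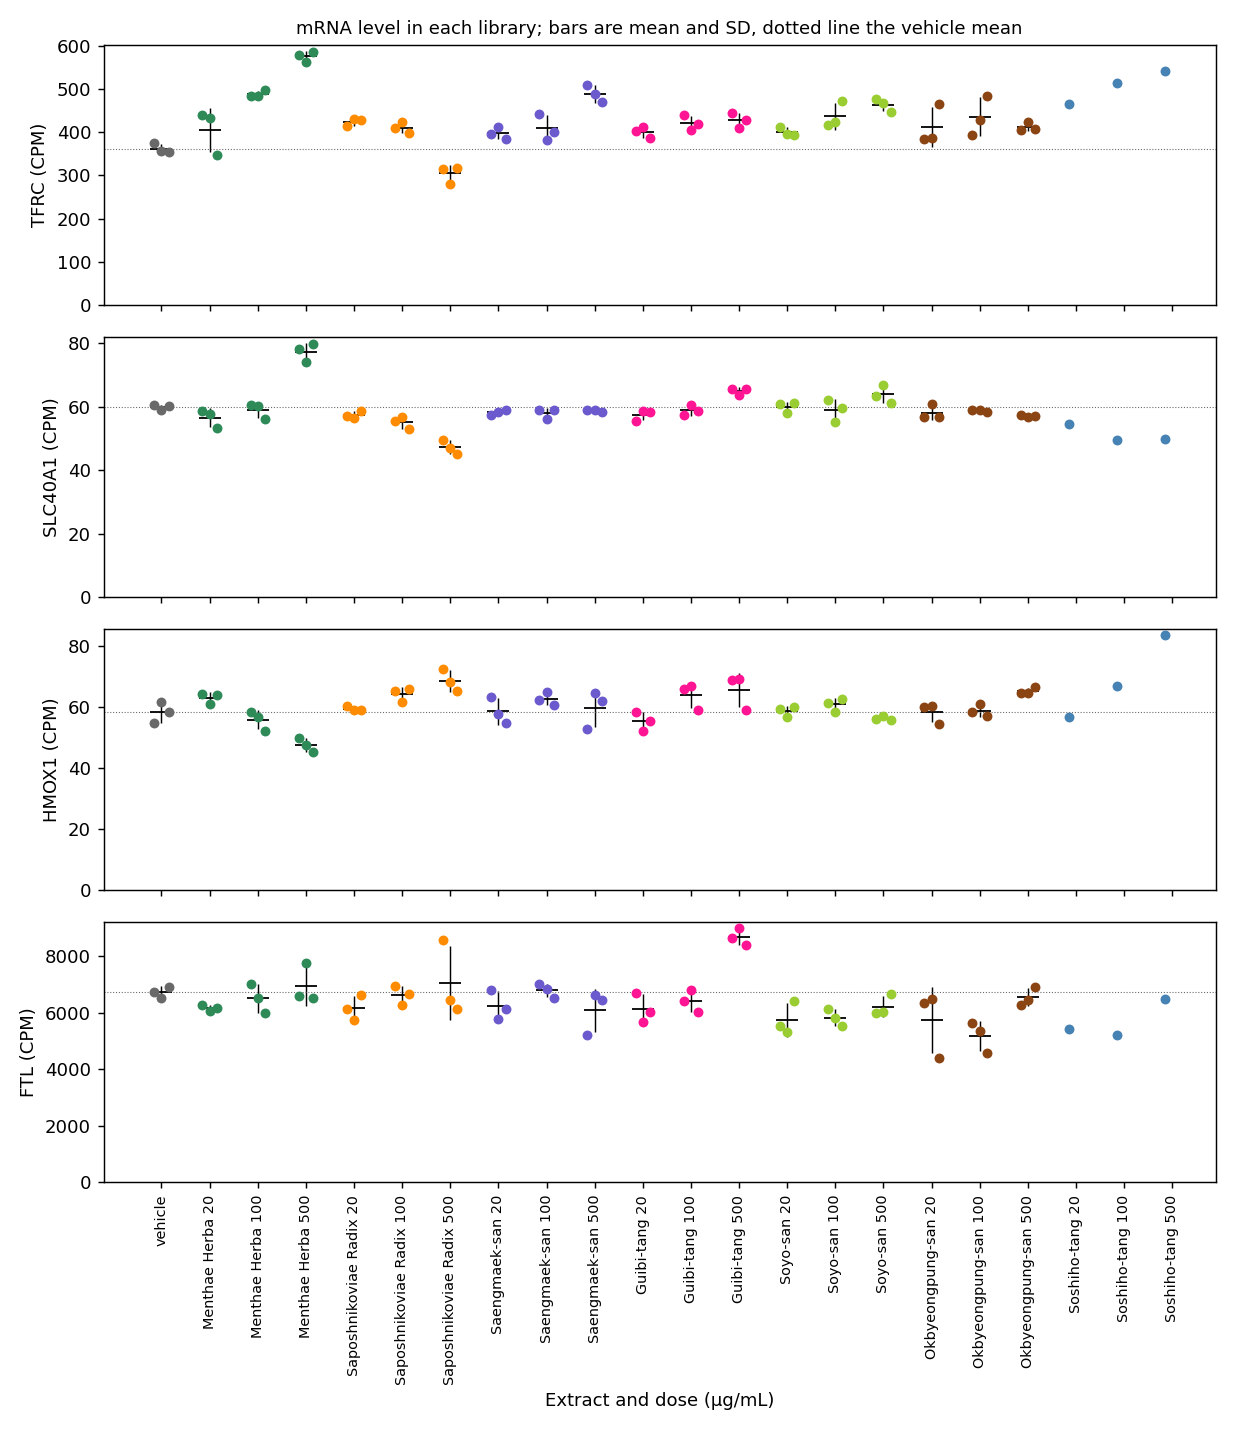
Each point is the CPM of TFRC, SLC40A1, HMOX1 or FTL in 1 library, grouped on the x axis by extract and dose in µg/mL, with the mean and SD as bars and the vehicle mean as a dotted line. TFRC and SLC40A1 are highest with Menthae Herba at 500 µg/mL (576 and 77.3 CPM on average) and HMOX1 is lowest there, while FTL is highest with Guibi-tang at 500 µg/mL.

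FTH1 and FTL encode the heavy and light chains of ferritin, of which the heavy chain oxidises iron for storage (ENSG00000167996, chr11:61959718-61967660, minus strand; ENSG00000087086, chr19:48965301-48966878, plus strand). FTL held 6741, 6518 and 6919 CPM in vehicle. With Guibi-tang it held 6691, 5652 and 6023 CPM at 20 µg/mL, 6417, 6787 and 6034 at 100 and 8631, 8982 and 8398 at 500. The 3 libraries at 500 µg/mL lay above all others of the extract and of vehicle. FTL rose by 0.50 ± 0.11 from 20 to 500 µg/mL (adjusted p = 0.0017, edgeR) and by 0.37 ± 0.11 over vehicle (adjusted p = 0.019). The vehicle call was lost without vehicle replicate 1 or 2 or Guibi-tang replicate 2 (adjusted p up to 0.073).

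FTH1 held 1553, 1654 and 1602 CPM in vehicle, and with Guibi-tang 1875, 1620.1 and 1596 at 20 µg/mL and 2283, 2274 and 1876 at 500. The ranges of the Guibi-tang doses meet at 1875 and 1876 CPM, and all 3 libraries at 500 µg/mL lay above vehicle. FTH1 rose by 0.34 ± 0.09 from 20 to 500 µg/mL (adjusted p = 0.012, edgeR) and by 0.42 ± 0.09 over vehicle (adjusted p = 0.001). The call between doses was lost without Guibi-tang replicate 1 or 2 at 500 or replicate 2 or 3 at 20 µg/mL (adjusted p up to 0.094) and in a fit of these groups alone (0.055). Replicate 1 at 20 µg/mL and replicates 1 and 2 at 500 are in the low MALAT1 class, and with the class as a covariate the changes of FTH1 and FTL between doses were 0.28 and 0.49 (adjusted p = 0.02 and 0.0029).

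With Menthae Herba FTH1 held 1792, 1793 and 1913 CPM at 20 µg/mL, 1877, 1859 and 1743 at 100 and 1965, 2170.3 and 1799 at 500. Each of these libraries was above vehicle, and FTH1 rose by 0.30 ± 0.09 at 500 µg/mL over vehicle (adjusted p = 0.0068, edgeR), a call lost without replicate 2 (0.068). The change between doses, 0.11, was not called. FTL with Menthae Herba changed by 0.17 between doses (95% interval -0.05 to 0.39). Replicate 3 at 20 µg/mL had the lowest length slope of the series, -0.050, and with the slope as a covariate these changes were 0.29 and 0.40 (adjusted p = 0.0014 and 1.3e-04).

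FTL was lower with Okbyeongpung-san at 100 µg/mL than in vehicle, at 5618, 5349 and 4587 CPM, a change of -0.38 (adjusted p = 0.019, edgeR). This call was lost without its replicate 3 (0.14), without vehicle replicate 3 (0.058) and with the class as a covariate (0.082). It was kept with the length slope as a covariate, at -0.30 (adjusted p = 0.0053, edgeR). Replicate 3 had the highest length slope of the series, 0.048. The lowest FTL level, 4405 CPM, was in Okbyeongpung-san replicate 3 at 20 µg/mL, with a slope of 0.046, beside 6354 and 6485 CPM in the other two. In Saposhnikoviae Radix at 500 µg/mL replicate 1 held 8562 CPM of FTL and the others 6444 and 6137. The 3 libraries with the highest slopes, which include Saengmaek-san replicate 1 at 500 µg/mL (0.045), held 5204, 4405 and 4587 CPM of FTL and 101, 99.5 and 108 CPM of IREB2, a longer mRNA. The medians over all libraries were 6421 and 90.8 CPM. The part of the slope in the levels of these single libraries was not tested.

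**Figure D3:**
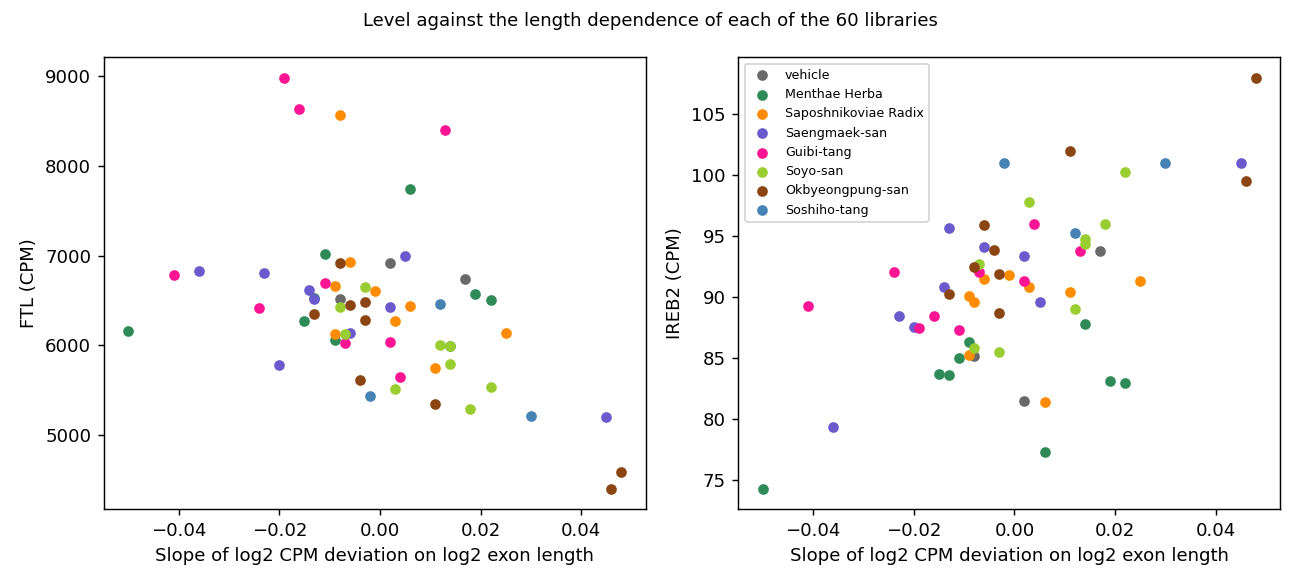
Each point is 1 of the 60 libraries, with its slope of log2 CPM deviation on log2 exon length on the x axis and the CPM of FTL (left) or IREB2 (right) on the y axis. Okbyeongpung-san replicate 3 at 20 and at 100 µg/mL, with slopes of 0.046 and 0.048, hold the lowest FTL, 4405 and 4587 CPM, and IREB2 at 99.5 and 108 CPM.

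Ferritin has many processed pseudogenes, and reads shared with them depend on how the counting split them. The 25 pseudogenes of FTH1 held 0.261 to 0.818% of the summed count of gene and pseudogenes, and the 16 of FTL 0.0558 to 0.327%. With these counts added to the parent gene all 6 ferritin calls remained. FTH1 in the 3 Soshiho-tang libraries was 1759.6, 1590.2 and 1950.2 CPM at 20, 100 and 500 µg/mL, and FTL was 5435, 5218 and 6467 CPM.

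NCOA4 encodes the receptor that carries ferritin to the autophagosome (ENSG00000266412, chr10:46005088-46030714, minus strand). It was the steadiest member, at 467 to 547 CPM over all 60 libraries, and it was called in none of the 26 comparisons. Vehicle held 530.4, 494 and 474 CPM. The 95% intervals of its 6 changes from 20 to 500 µg/mL ran from -0.10 at the lowest bound to 0.14 at the highest.

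SLC40A1 encodes ferroportin, the iron exporter that hepcidin removes from the membrane (ENSG00000138449, chr2:189560579-189583758, minus strand). Vehicle held 60.4, 58.8 and 60.2 CPM. Menthae Herba gave 58.6, 57.8 and 53.2 CPM at 20 µg/mL, 60.5, 60.3 and 56.2 at 100 and 78.1, 74.1 and 79.6 at 500, so the rise appears at the highest dose. Saposhnikoviae Radix gave 57.1, 56.4 and 58.7 CPM at 20 µg/mL and 49.6, 47.0 and 45.2 at 500. The libraries of the 2 doses do not overlap with either herb.

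From 20 to 500 µg/mL SLC40A1 rose by 0.45 ± 0.04 (adjusted p = 3.3e-12, edgeR) with Menthae Herba and fell by 0.28 ± 0.04 (adjusted p = 1.4e-04) with Saposhnikoviae Radix. Against vehicle the values were 0.37 and -0.34. With Guibi-tang it rose by 0.18 ± 0.04 (adjusted p = 0.0046), from 55.6, 58.6 and 58.2 to 65.6, 63.8 and 65.7 CPM, a call lost in a fit of these groups alone (0.06) and without the filter on low counts (0.11). Soyo-san gave 0.09 (95% interval 0.00 to 0.18; adjusted p = 0.26), Saengmaek-san 0.01 and Okbyeongpung-san -0.03. The changes differed among the extracts (adjusted p = 9.7e-12), and Menthae Herba exceeded the mean of the other 5 by 0.46 ± 0.05 (adjusted p = 1.1e-10). The Soshiho-tang libraries held 54.7, 49.4 and 49.9 CPM at 20, 100 and 500 µg/mL, beside TFRC levels that were higher at each step.

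Of HAMP, which encodes hepcidin, the change from 20 to 500 µg/mL was -5.18 with Menthae Herba, -2.57 with Soyo-san, -0.62 with Saposhnikoviae Radix, -0.61 with Saengmaek-san and -0.56 with Guibi-tang, each called. With Okbyeongpung-san it was 0.21 (adjusted p = 0.99, edgeR).

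HMOX1 encodes heme oxygenase, which frees iron from heme and is a classical target of the oxidant-responsive factor NRF2 (ENSG00000100292, chr22:35380361-35394214, plus strand). Vehicle held 54.9, 61.6 and 58.3 CPM. Menthae Herba gave 64.4, 61.1 and 63.9 CPM at 20 µg/mL, 58.3, 56.7 and 52.3 at 100 and 49.9, 47.7 and 45.1 at 500. The 3 libraries at 500 µg/mL lay below every other library of the series. HMOX1 fell by 0.41 ± 0.06 from 20 to 500 µg/mL (adjusted p = 4.5e-07, edgeR) and by 0.29 ± 0.06 from vehicle (adjusted p = 1.4e-04). With the length slope as a covariate these changes were -0.27 and -0.25 (adjusted p = 1.1e-05 and 8.7e-06, edgeR).

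With Guibi-tang HMOX1 held 58.5, 52.2 and 55.4 CPM at 20 µg/mL and 68.8, 69.2 and 59.2 at 500, a rise of 0.25 ± 0.06 (adjusted p = 0.0046, edgeR). That call was lost without replicate 2 at either dose (0.056 and 0.055). Its change against vehicle, 0.17 (adjusted p = 0.048), was lost in 8 of 14 settings. These were vehicle replicate 1 or 3 or Guibi-tang replicate 1 or 2 left out (up to 0.25), DESeq2 (0.05), RLE scaling (0.052), no filter (0.096) and a fit of these groups alone (0.11). With Saposhnikoviae Radix it held 60.4, 59.1 and 59.0 CPM at 20 µg/mL and 72.5, 68.4 and 65.3 at 500. There the change between doses was 0.21 (adjusted p = 0.13), and the change against vehicle, 0.24 (adjusted p = 0.011), was lost without vehicle replicate 1 (0.14) or Saposhnikoviae Radix replicate 1 (0.065) and in a fit of these groups alone (0.057). With the length slope as a covariate these 2 changes were 0.23 and 0.25 (adjusted p = 0.0011 and 9.7e-05, edgeR). Soyo-san, Saengmaek-san and Okbyeongpung-san gave -0.06, 0.03 and 0.16 between doses, none called. Soshiho-tang gave 56.9, 67.0 and 83.6 CPM at 20, 100 and 500 µg/mL, and the last is the highest HMOX1 level of the series.

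HMOX1 moved opposite to TFRC and SLC40A1 with Menthae Herba. Its change differed among the extracts (edgeR, adjusted p = 1.3e-07), and Menthae Herba lay below the mean of the other 5 by -0.52 ± 0.07 (adjusted p = 2.2e-08). With the length slope as a covariate the latter was -0.40 (adjusted p = 2.4e-08, edgeR).

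FBXL5, the adaptor of the ligase that targets IREB2 (ENSG00000118564, chr4:15604539-15681679, minus strand), held 24.9, 21.9 and 19.8 CPM in vehicle. Menthae Herba gave 19.9, 22.1 and 21.4 CPM at 20 µg/mL, 19.9, 18.9 and 20.3 at 100 and 18.3, 16.9 and 17.7 at 500. The 3 libraries at 500 µg/mL were the lowest of the series. FBXL5 fell by 0.26 ± 0.07 from 20 to 500 µg/mL (adjusted p = 0.0018, edgeR) and by 0.33 ± 0.07 from vehicle (adjusted p = 5.2e-05). The change with Menthae Herba was -0.26 ± 0.07 relative to the mean of the other extracts (adjusted p = 0.006), whereas the test over all 6 extracts missed the threshold (adjusted p = 0.11). No other extract changed FBXL5 in a called comparison.

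IREB2, the regulatory protein that FBXL5 controls at the protein level (ENSG00000136381, chr15:78437431-78501456, plus strand), had no called change from 20 to 500 µg/mL. Its changes there ran from -0.06 with Soyo-san to 0.07 with Saengmaek-san. With Menthae Herba it held 83.7, 86.3 and 74.3 CPM at 20 µg/mL and 83.1, 77.3 and 83.0 at 500. Its 1 call, 0.22 with Okbyeongpung-san at 100 µg/mL over vehicle (adjusted p = 0.012, edgeR), was lost without its replicate 3 (0.13), without vehicle replicate 2 or 3 (0.06 and 0.11), with the class as a covariate (0.13) and in a fit of these groups alone (0.055). With the length slope as a covariate the call was kept, at 0.17 (adjusted p = 0.0061, edgeR).

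ACO1 encodes the regulatory protein that is a cytosolic aconitase when it holds an iron-sulfur cluster (ENSG00000122729, chr9:32384603-32454769, plus strand). It had group means within 1.22-fold of each other. Saposhnikoviae Radix libraries held 74.3, 76.7 and 75.9 CPM at 20 µg/mL and 73.8, 75.5 and 76.5 at 500, above the 65.7, 67.5 and 67.9 of vehicle. These gave calls of 0.17 at both doses (adjusted p = 0.027 and 0.035, edgeR). The call at 20 µg/mL was lost without vehicle replicate 1 or any 1 of the 3 Saposhnikoviae Radix libraries, and that at 500 without vehicle replicate 1 or 2 or Saposhnikoviae Radix replicate 2 or 3 (adjusted p up to 0.14 and 0.17). Both were lost without the filter (0.079 and 0.12), and that at 500 in a fit of these groups alone (0.12). Okbyeongpung-san at 100 µg/mL also gave 0.17 (adjusted p = 0.018), lost without its replicate 3 (0.18) or vehicle replicate 1 or 2 (0.067 and 0.053), without the filter (0.085) and in a fit of these groups alone (0.087). Between doses ACO1 was called with Menthae Herba, at -0.13 (adjusted p = 0.046), where the ranges of 66.0 to 73.0 and 61.2 to 65.9 CPM nearly meet. That call was lost without replicate 1 or 2 at 20 or replicate 2 or 3 at 500 µg/mL (up to 0.29), without the filter (0.2) and in a fit of these groups alone (0.073).

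**Figure D4:**
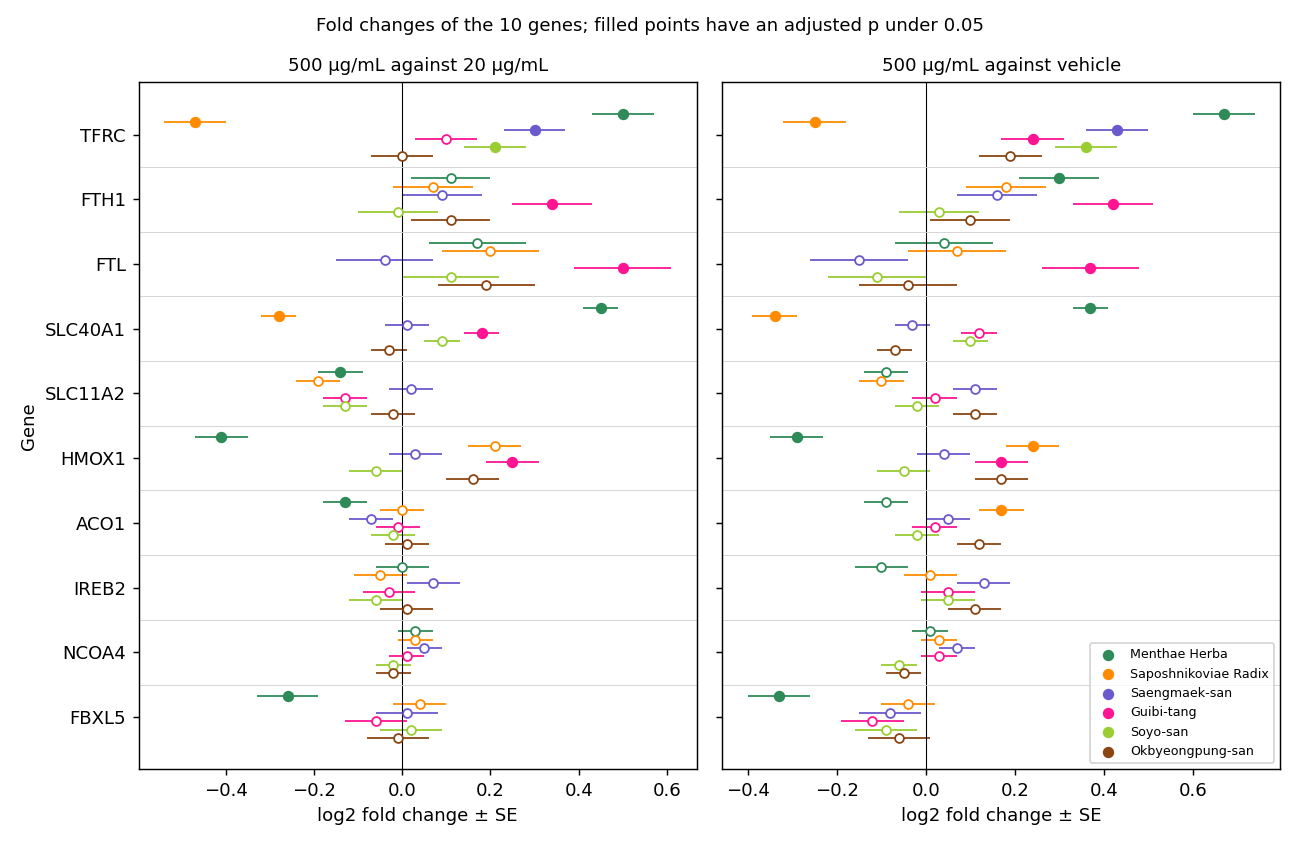
The log2 fold change of each gene, with its SE as a bar, is drawn for 6 extracts at 500 µg/mL against 20 µg/mL (left) and against vehicle (right), with filled points where the adjusted p is under 0.05. TFRC and SLC40A1 lie to the right with Menthae Herba (0.50 and 0.45) and to the left with Saposhnikoviae Radix (-0.47 and -0.28) in the left panel.

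Over the 19 replicated group means, TFRC and SLC40A1 had a Pearson correlation of log2 CPM of 0.81, FTH1 and FTL of 0.83, and HMOX1 of -0.68 with TFRC and -0.73 with SLC40A1. These are descriptions over groups that were scaled together and that, within an extract, form a dose series. TFRC and SLC40A1 were both highest with Menthae Herba and both lowest with Saposhnikoviae Radix at 500 µg/mL (576 and 77.3, and 305 and 47.3 CPM). Away from these groups they could part. Menthae Herba at 100 and Saengmaek-san at 500 µg/mL each held 489 CPM of TFRC. SLC40A1 was 59.0 and 58.8 CPM there, beside 59.8 in vehicle. Among 9324 genes with at least 10 CPM, the nearest to TFRC were TMEM59 and P4HA1 (both 0.83). They were PRNP and KLHL5 for SLC40A1 (both 0.89), EMC8 and MCCC1 for HMOX1 (0.89 and 0.85), LAMP1 and OSGIN1 for FTH1 (0.91 and 0.90) and FAM174C and PHB1 for FTL (0.87 and 0.85). For the others they were SGO2 and LYAR for FBXL5 (0.92 and 0.91), DDX3X and XPO4 for IREB2 (0.96 and 0.94), KDM1A and ALDH3A2 for ACO1 (both 0.90), SKIL and SMAD9 for SLC11A2 (0.85 and 0.83) and ZNF692 and NELFCD for NCOA4 (0.80 and 0.76).

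Other genes of iron handling were taken as lists, chosen like the members with earlier results of these data known. Of 14 genes of uptake and export 11 were tested, and with Menthae Herba from 20 to 500 µg/mL 4 rose and 3 fell, with a median of 0.01 against -0.01 over all genes, of which 32.1% were called. CP, the copper oxidase that loads iron onto transferrin after export by ferroportin, rose by 0.99 ± 0.10 (adjusted p = 3.3e-11, edgeR), from 117 to 231 CPM. STEAP2, a metalloreductase, rose by 0.34 from 8.34 to 10.5 CPM, and TMPRSS6, a protease that restrains hepcidin, fell by 0.50 from 5.42 to 3.82 CPM. With Guibi-tang 3 of these genes fell (8.12% of all genes called), with Saengmaek-san 1 fell (1.96%) and with Soyo-san 1 rose (7.58%). With Saposhnikoviae Radix (0.397%) and Okbyeongpung-san (0.0240%) none was called.

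Of the 10 tested chaperones and mitochondrial iron genes, 5 fell and none rose with Menthae Herba (median -0.18), against 32.1% of all genes called. PCBP1, which delivers iron to ferritin, fell by 0.30 from 493 to 399.9 CPM. GLRX5 and ISCU, of iron-sulfur cluster assembly, fell by 0.33 and 0.24. Among the other extracts 1 gene fell with Saengmaek-san (1.96% of all genes called) and none was called elsewhere.

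Of 14 genes of heme synthesis, transport and breakdown, 1 rose and 2 fell with Menthae Herba, a smaller share than the 32.1% of all genes called. ALAS1, the first enzyme of heme synthesis, rose by 0.46 ± 0.05 (adjusted p = 1.1e-10, edgeR), from 42.2 to 57.9 CPM. HPX, hemopexin, fell by 0.82 from 16.1 to 9.10 CPM. BLVRB, a biliverdin reductase, rose by 0.40 with Guibi-tang, where the list had 2 higher and 1 lower (8.12% of all genes called).

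Of the other listed mRNAs with a reported iron-responsive element 5 were tested. With Menthae Herba 3 rose and 1 fell between doses (32.1% of all genes called). CDC42BPA, a kinase, rose by 0.42 and PFN2, profilin, by 0.14. EPAS1, which encodes a hypoxia-inducible factor subunit, rose by 0.26 with Guibi-tang, from 222 to 266 CPM. Vehicle held 256 CPM, and EPAS1 was not called against it with Guibi-tang at 500 µg/mL. With Soyo-san and Menthae Herba at 500 µg/mL EPAS1 fell by 0.45 and 0.30 from vehicle, to 187 and 208 CPM. Of 8 partners of FBXL5, CUL1, the ligase scaffold, fell with Menthae Herba (-0.13), and CIAO3, of cytosolic iron-sulfur assembly, rose with Guibi-tang (0.29). Each was the only one of the 8 called there, against 32.1% and 8.12% of all genes.

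Of 9 genes of ferritin autophagy 6 rose with Menthae Herba between doses (median 0.19), against 32.1% of all genes called. GABARAPL1, an autophagosome protein, rose by 0.94 ± 0.08 (adjusted p = 3.0e-14, edgeR), and RB1CC1 and MAP1LC3B rose by 0.48 and 0.32. With Guibi-tang 3 rose (8.12% of all genes called) and with Soyo-san 1 rose (7.58%). NCOA4, the receptor itself, was not among the changed genes with any of them.

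The list of NRF2 regulators and targets outside iron had 12 tested genes. With Menthae Herba 9 rose and 2 fell (32.1% of all genes called), and HMOX1 fell. SLC7A11, the cystine transporter, rose by 1.38 ± 0.08 (adjusted p = 3.6e-19, edgeR), from 46.4 to 121 CPM, and GCLC, of glutathione synthesis, rose by 0.69. With Guibi-tang, where HMOX1, FTH1 and FTL rose, 7 of the list rose (8.12% of all genes called), led by OSGIN1 at 0.71 ± 0.09 (adjusted p = 1.1e-07). With Saengmaek-san 6 rose (1.96%), with Soyo-san 4 rose and 2 fell (7.58%), with Saposhnikoviae Radix 2 rose (0.397%) and with Okbyeongpung-san none was called (0.0240%). The part of this factor in the levels of the members was not tested.

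Of 8 targets of hypoxia-inducible factors all 8 rose with Menthae Herba from 20 to 500 µg/mL, with a median of 0.80 against -0.01 over all genes, of which 32.1% were called. They included NDRG1 (1.20, from 59.8 to 137 CPM), BNIP3 (0.63) and CA9 (1.48). With Guibi-tang 4 rose (8.12% of all genes called), with Saengmaek-san 2 (1.96%) and with Soyo-san 1 (7.58%). With Saposhnikoviae Radix none of the 8 was called between doses (0.397%), at a median of -0.05, and 2 rose over vehicle at 500 µg/mL (5.80%), at a median of 0.14. The part of these factors in the levels of the members was not tested.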

How the data were processed

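Total RNA of HepG2 was sequenced in 60 libraries, and the authors deposited 1 table of expected counts by Ensembl gene. The tools were, per the submitters' processing notes, FastQC 0.11.9, Trim Galore 0.6.5, STAR 2.7.3a and RSEM 1.3.3 with GRCh38. Annotation, settings and strandedness: not given in the sources used. Counts were rounded, filtered with filterByExpr (minimum count 10), which left 16644 genes, scaled by TMM and fitted with edgeR 4.0.16 (R 4.3.3, robust quasi-likelihood) over 57 libraries in 19 groups. The SE of a log2 fold change is its size over the square root of F. Positions and exon lengths are from GENCODE v29. The procedure was tested on simulated data.

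The members and lists were chosen with earlier results of these data known. All 10 members are named. From each list at most 3 called genes with the largest change in any extract and at least 5 CPM in a group are named, per kind of comparison, and for each member the 2 genes of most similar level over the groups. Alternatives were RLE scaling, no filter, DESeq2 1.42.0, only the groups compared, the MALAT1 class (split at 331 CPM) as a covariate, low-class libraries only, replicate blocks, ferritin pseudogene counts added, each library left out, and, chosen after seeing the data, the length slope as a covariate. At the highest and lowest library total 3 counts equal 0.0926 and 0.147 CPM, for counting error only.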

Additional observations from a re-analysis of the deposited data

Results flagged for a closer look

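The change from 20 to 500 µg/mL differed among the 6 extracts by the 5-degree-of-freedom F test of edgeR for TFRC (adjusted p = 1.0e-10), SLC40A1 (9.7e-12) and HMOX1 (1.3e-07). The Menthae Herba change differed from the mean of the other 5 for TFRC (adjusted p = 6.1e-07, edgeR), SLC40A1 (1.1e-10), HMOX1 (2.2e-08) and FBXL5 (0.006). The first 2 genes rose and the other 2 fell with Menthae Herba. Groups of 3 libraries are small for judging whether a single library is an outlier. Each of these calls was kept in all 42 alternative settings, most of which left out 1 library.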

How the results depend on the processing

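The main counts of called member tests were 15 of 60 (500 against vehicle), 7 (100), 2 (20) and 14 (500 against 20), and 3 and 4 of 10 for the tests among extracts. With the length slope as a covariate they were 24, 14 and 9 against vehicle, and 6 changes differed among extracts; no main call was lost and 34 were gained. Without the filter 5 were called at 20 against vehicle and 5 differed among extracts. With the class as a covariate 5 were called at 20 against vehicle. In low-class libraries alone, where 30 tests could be made, 2 were called at 100 against vehicle and 9 at 500 against 20. All 26 main calls that could be tested there stayed called, and 1 was gained. With only the groups compared 9 were called at 500 against 20. Leaving out each library gave 10 to 17, 4 to 9, 0 to 4 and 10 to 14 calls, and 3 to 4 and 4 to 4 for the tests among extracts. No pairing of samples by replicate number was detected. Same-number correlations of deviations ran from -0.14 to 0.2, and in 0 of 24 comparisons was each over 0.1. With a replicate block the counts were 15, 8, 2, 14, 3 and 4, and with the block within the code set 14 at 500 against 20. Of the single calls 11 were lost with only the groups compared, 7 without the filter, 2 with the class and 1 each with RLE scaling and DESeq2. No called change turned its sign under any alternative. Over all genes the count called moved by more than 1.5 times in 3 of 26 comparisons without the filter, 6 with the class, 9 with the length slope and 13 of 24 with only the groups compared. For Saposhnikoviae Radix 500 against 20 it was 66, and 191, 116 and 30 without the filter, with the length slope and with only the groups compared.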
